A study of Mus musculus with 10 samples.

Results

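The oestrogen and progesterone receptor programme of the mouse mammary epithelium was followed here through 6 listed genes, *Esr1*, *Pgr*, *Greb1*, *Cited1*, *Tbx3* and *Msx2*. They were found by gene identifier among the 24594 genes of the count table, and all 6 were among the 14609 genes with enough counts to be tested. The study sequenced RNA of luminal and basal cells that were freshly sorted from the mammary glands of virgin C57BL/6J mice, to compare both layers of the duct. All animals were wild type and untreated as far as the labels say, and 5 libraries came from each cell type. Cells were separated by flow cytometry on EpCAM and CD49f, so the luminal gate holds both hormone-sensing and progenitor cells, and the labels give no age, oestrous stage or batch. The leading number of the library description was read as the animal, so luminal library 1 and basal library 1 were taken to share an animal.

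Titles and cell type labels contradict each other in all 10 libraries, a library labelled luminal being titled basal and the reverse. The cell type label was used, and with the titles every direction below would be the reverse. Markers followed the label. Summed over 4 pan-luminal genes (*Krt8*, *Krt18*, *Krt19*, *Epcam*), the level was 8523 to 12600 CPM (counts scaled to library size) in the libraries labelled luminal and 1333 to 1745 CPM in those labelled basal. Summed over 7 basal markers such as *Krt5*, *Krt14* and *Acta2* it was 26.5 to 78.9 CPM in luminal and 10380 to 14860 CPM in basal libraries. Summed over 6 markers of hormone-sensing luminal cells, *Foxa1*, *Areg*, *Prlr*, *Prom1*, *Ly6a* and *Fxyd2*, it was 2211 to 2859 CPM in luminal and 15.1 to 51.3 CPM in basal libraries. Totals ranged from 13203146 to 17998165 counts per library, and CPM throughout is on totals scaled by TMM, a factor that corrects for differences in RNA composition.

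In the adult gland oestrogen is sensed by a subset of luminal cells through oestrogen receptor alpha, the product of *Esr1*. This nuclear receptor binds DNA with pioneer and partner factors such as FOXA1 and GATA3 and raises, among others, *Pgr*, the progesterone receptor gene. Most dividing cells carry neither receptor, and the hormone signal reaches them through secreted mediators: amphiregulin (*Areg*) downstream of oestrogen, and RANKL (*Tnfsf11*) and WNT4 downstream of progesterone.

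The genes differ in what lies before their start sites, and promoter sequences are shown first, from RefSeq on build GRCm38.p6. The table held 9 promoter entries of 300 bases (250 before and 50 after a start) for 5 of the 6 genes: 2 for *Esr1*, 1 for *Pgr*, 2 for *Greb1*, 3 for *Cited1* and 1 for *Msx2*. The 250 bases before the first *Esr1* start lie at chr10:4611739-4611988 on the plus strand, and those before the first *Cited1* start at chrX:102252182-102252431 on the minus strand. They are shown whole because the first belongs to the receptor itself and the second to a member nearly restricted to the luminal layer; neither holds a match to any motif searched, so no base is in capitals.
Esr1 first promoter: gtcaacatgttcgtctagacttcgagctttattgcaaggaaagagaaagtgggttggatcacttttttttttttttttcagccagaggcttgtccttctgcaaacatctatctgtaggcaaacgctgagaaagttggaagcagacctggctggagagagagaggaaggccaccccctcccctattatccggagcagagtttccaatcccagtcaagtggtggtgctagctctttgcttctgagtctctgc
Cited1 first promoter: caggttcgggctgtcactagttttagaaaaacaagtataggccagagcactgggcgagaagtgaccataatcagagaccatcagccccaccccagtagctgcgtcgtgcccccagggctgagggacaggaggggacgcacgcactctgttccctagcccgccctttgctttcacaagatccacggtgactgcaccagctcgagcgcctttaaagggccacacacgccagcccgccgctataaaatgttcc

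Motifs were searched on both strands of the whole entries. The palindromic oestrogen response element GGTCANNNTGACC was in 0 of the 9 entries and in 0.07% of 32851 promoter entries of all genes. Its half-site AGGTCA, whose last 5 bases make up one arm of the full element, was in 2 of the 9 and in 16.3% of all. The progesterone response element core ACANNNTGT was in 1 of the 9 and in 6.85% of all, and the T-box motif AGGTGT, the kind TBX3 binds, was in 1 of the 9 and in 13.7% of all. The forkhead motif, TGTTTAC (3.65% of all), the GATA factor motif, AGATAA (11.2% of all), and the homeobox motif, TAATTG (8.0% of all), were in 0 of the 9. The matches are set in capitals in the 30-base windows below, each written in the direction of its gene. All genes concerned are on the minus strand, and a half-site or T-box match reads here as its reverse complement. The *Greb1* windows are at chr12:16800957-16800986 (half-site), chr12:16800837-16800866 (T-box) and chr12:16757449-16757478 (progesterone core), and the *Cited1* window is at chrX:102250976-102251005 (half-site).
Greb1 first promoter, half-site: ccaagcaacaaaTGACCTctgtccccggag
Greb1 first promoter, T-box: gcaagccaatctcctgtgcctACACCTgga
Greb1 second promoter, progesterone core: aagtcagcagACAACTTGTaggaattggtt
Cited1, the third promoter, half-site: cttttaacgttgTGACCTtgggttaagtta
These matches are descriptions of letters in a window and were not tied to any binding measurement.

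All 6 members were higher in luminal cells, a call that 33.6% of the genes tested received, and 0 of 6 were higher in basal cells, as 31.2% of the genes tested were. For 5 of the 6, every luminal library lay above every basal library, which held for 24.7% of the genes tested. *Greb1* was the exception, and its call was also lost in several alternatives. The median log2 fold change (luminal against basal) of the members was 4.06, beside 0.05 over all 14609 genes. *Cited1*, *Msx2* and *Pgr* were nearly restricted to the luminal libraries, *Esr1* was several-fold higher, and *Tbx3* and *Greb1* differed little more than 2-fold. In sorted bulk cells, fewer cells of a type and less RNA per cell cannot be told apart, so a level in basal libraries may stand for few positive cells or for low expression in many.

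**Figure D1:**
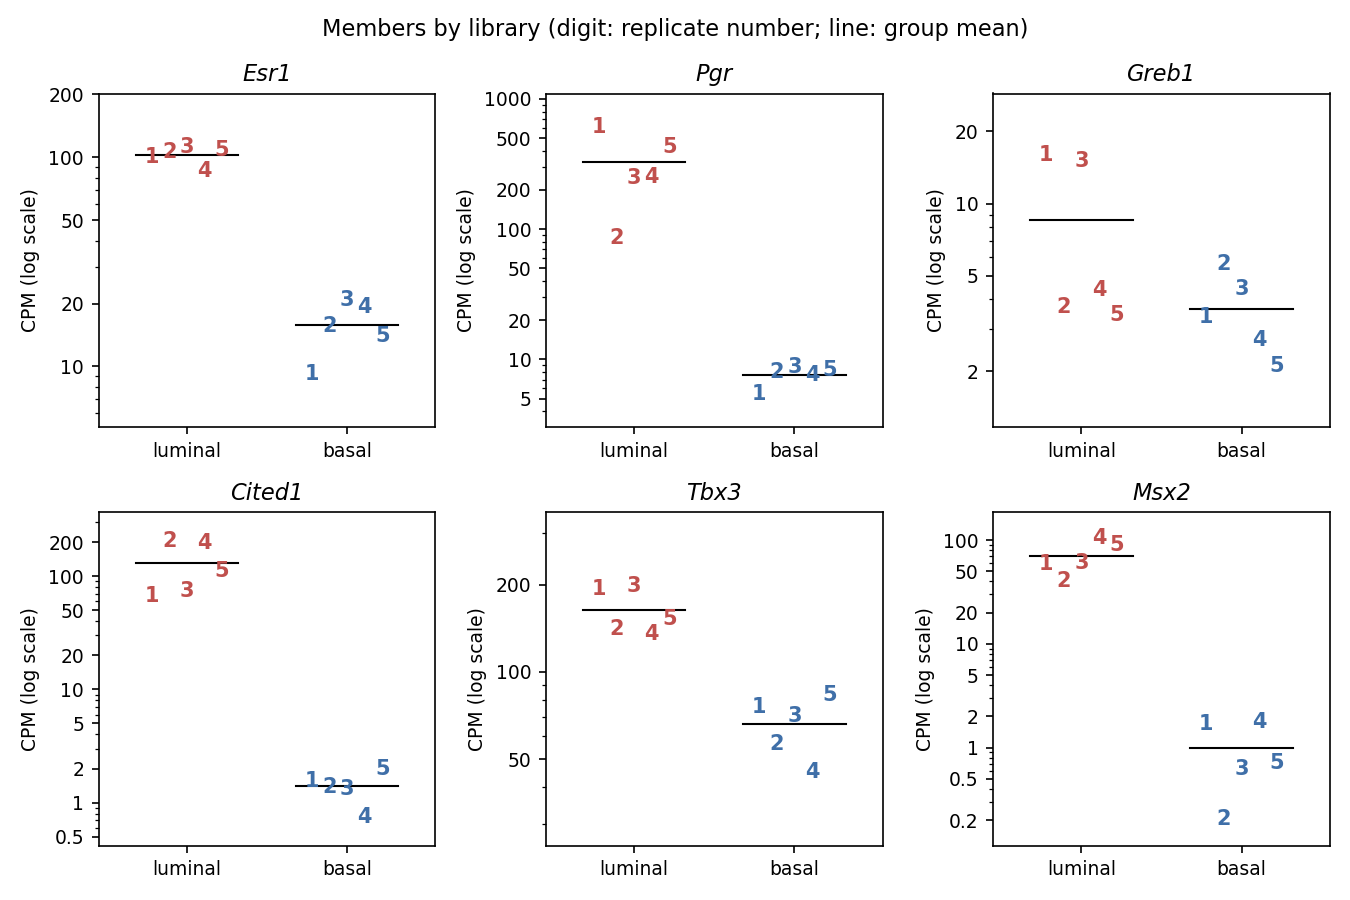
CPM of the 6 members in each library, on a log axis that differs between panels. Digits give the replicate number (red luminal, blue basal) and lines the mean of 5 libraries; the groups are separate for all members but *Greb1*, where luminal libraries 2, 4 and 5 lie among the basal ones.

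*Esr1* (chr10:4611989-5005633), the receptor that starts the programme, was the steadiest member within luminal cells. It stood at 101, 106, 112, 85.7 and 109 CPM in luminal libraries 1 to 5 and at 9.23, 15.7, 20.9, 19.3 and 14.0 CPM in basal libraries 1 to 5. The lowest luminal library was thus well above the highest basal one. The log2 fold change was 2.70 (SE 0.20, edgeR quasi-likelihood test, Benjamini-Hochberg adjusted p = 3.66e-08), a 6.49-fold difference. It was not near the top of the table: 5.8% of the genes tested ranked as high or higher, and the basal mean was 15.4% of the luminal mean. Among basal libraries *Esr1* was highest in library 3, in which the sum of 5 fibroblast markers was also highest, at 41.1 CPM against 25.6 to 34.1 CPM in the others. Of the 5, *Pdgfra* was highest there at 19.4 CPM, and *Dcn* and *Lum* were below their basal means. The 6 hormone-sensing luminal markers summed to 15.1, 30.2, 38.5, 51.3 and 24.1 CPM in basal libraries 1 to 5, lowest in library 1 as *Esr1* was and highest in library 4. Only *Foxa1* of that list was highest in basal library 3, at 2.63 CPM. *Areg*, *Prlr* and *Ly6a* were highest in basal library 4, *Prom1* in 2 and *Fxyd2* in 5. The part of either marker list was not tested.

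*Pgr* (chr9:8898900-8968611), the progesterone receptor and a classical oestrogen-induced gene, was both highly luminal and highly variable. It stood at 611, 86.0, 248, 253 and 426 CPM in luminal libraries 1 to 5 and at 5.43, 7.98, 8.74, 7.57 and 8.33 CPM in basal libraries 1 to 5. Luminal library 1 was the highest and library 2 the lowest, a 7.11-fold range (2.46-fold without library 2, 4.96-fold without library 1), and yet library 2 was still far above every basal library. The log2 fold change was 5.42 (SE 0.44, edgeR adjusted p = 9.59e-08), or 42.7-fold. The basal mean was 2.34% of the luminal mean, a smaller share than for *Esr1*, and basal library 3 was again the highest. By pairs of libraries from the same numbered animal, the log2 difference ranged from 3.43 in pair 2 to 6.81 in pair 1.

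*Greb1* (chr12:16670615-16801394), an oestrogen-induced cofactor of the receptor, was the weakest member. It stood at 16.0, 3.69, 15.1, 4.35 and 3.43 CPM in luminal libraries 1 to 5 and at 3.37, 5.59, 4.41, 2.69 and 2.10 CPM in basal libraries 1 to 5. Luminal libraries 1 and 3 were high, the other 3 lay within the basal range, and in pair 2 the basal library was the higher. The log2 fold change was 1.23 (SE 0.47, edgeR adjusted p = 0.0333), and the call did not hold in several settings. With the animal number as a block it was 0.99 (adjusted p = 0.0567), without luminal library 1 it was 0.90 (adjusted p = 0.109) and without luminal library 3 it was 0.91 (adjusted p = 0.118). It was also lost without basal library 1 (1.20, adjusted p = 0.0651), 4 (1.13, adjusted p = 0.07) or 5 (1.09, adjusted p = 0.0799). Of its 9580 exon bases, 7.68% overlap *Gm48140* on the other strand, and how strand was counted is not given in the sources used here.

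*Cited1* (chrX:102247378-102252181), a transcriptional coactivator that is a marker of hormone-sensing cells, gave, with *Msx2*, the largest contrasts of the 6. It stood at 66.3, 205, 74.2, 198 and 110.4 CPM in luminal libraries 1 to 5 and at 1.56, 1.36, 1.32, 0.75 and 1.98 CPM in basal libraries 1 to 5. Libraries 2 and 4 were the high ones here, and libraries 1 and 3, which were high in *Greb1*, were the low ones. The log2 fold change was 6.54 (SE 0.40, edgeR adjusted p = 5.93e-09), or 93.0-fold, and 1.01% of the genes tested ranked as high or higher. Its lead over *Msx2* was of the size of their SEs, and without basal library 4 the order turned (6.37 for *Cited1* and 6.40 for *Msx2*).

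*Tbx3* (chr5:119670534-119684724), a T-box repressor needed for early gland formation, was shared between the layers. It stood at 193, 140.5, 197.5, 135 and 152 CPM in luminal libraries 1 to 5 and at 75.7, 56.5, 70.3, 45.4 and 83.4 CPM in basal libraries 1 to 5. No basal library reached the lowest luminal one. The log2 fold change was 1.30 (SE 0.18, edgeR adjusted p = 2.03e-05), and the basal mean was 40.5% of the luminal mean. An antisense gene, *Tbx3os1*, overlaps 1.74% of its exon bases.

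*Msx2* (chr13:53466881-53472780), a homeobox factor of epithelial and mesenchymal development, was close to absent from basal libraries. It stood at 58.8, 40.2, 59.8, 103.6 and 89.6 CPM in luminal libraries 1 to 5 and at 1.68, 0.20, 0.62, 1.75 and 0.72 CPM in basal libraries 1 to 5. The basal values rest on 3 to 28 counts per library. The log2 fold change was 6.11 (SE 0.43, edgeR adjusted p = 1.98e-08), or 69.1-fold, and the basal mean was 1.41% of the luminal mean.

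Levels of different genes can be set side by side only per transcript length. As mean CPM per kb in luminal cells, *Cited1* was at 119.9 ± 61.1 (SD, n = 5), *Pgr* at 47.2 ± 29.1, *Tbx3* at 32.8 ± 5.91, *Msx2* at 28.7 ± 10.4, *Esr1* at 16.2 ± 1.63 and *Greb1* at 1.06 ± 0.80. The library ranges of neighbours in this order overlapped, except between *Esr1* and *Greb1*. In basal cells the order began differently: *Tbx3* was highest at 13.3 ± 3.06 CPM per kb, followed by *Esr1* at 2.50 ± 0.73, with *Cited1* (1.28 ± 0.41), *Pgr* (1.11 ± 0.19), *Greb1* (0.45 ± 0.17) and *Msx2* (0.41 ± 0.28) after it.

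The members differed widely in how far the luminal libraries varied among themselves. The coefficient of variation (CV, SD over mean) over the 5 luminal libraries was 10.1% for *Esr1*, 18.0% for *Tbx3*, 36.4% for *Msx2*, 51.0% for *Cited1*, 61.6% for *Pgr* and 75.7% for *Greb1*. Counting error alone would give 1.41% for *Pgr* and 8.59% for *Greb1*, the largest of the 6. Over 9805 genes with a luminal mean of at least 10 CPM the median CV was 19.9%, and 80% of them lay between 9.72% and 37.6%. Of these genes, 98.6% varied less than *Pgr* and 96.8% less than *Cited1*, while 11.1% varied less than *Esr1*. The CV of *Esr1* was 4.42% without luminal library 4, its lowest, and 15.1% on library totals without TMM. *Greb1*, at a mean of 8.51 CPM, is below the level of that comparison, and CV tends to be larger at low levels.

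**Figure D2:**
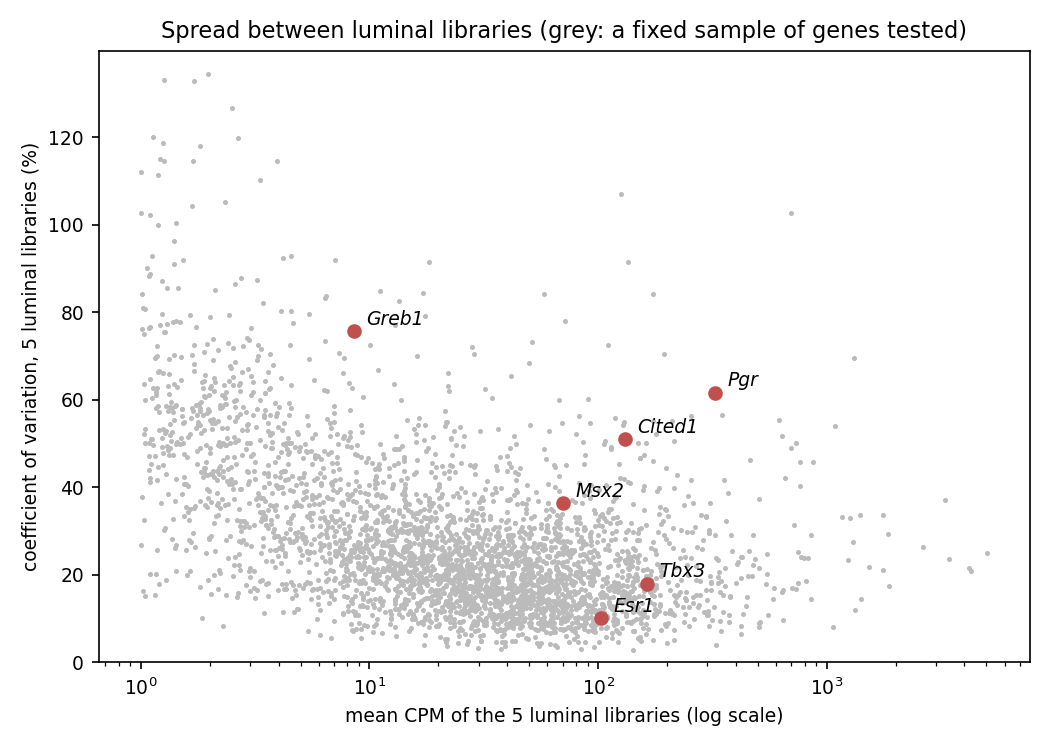
CV over the 5 luminal libraries (%) against their mean CPM (log scale), with the 6 members in red and every 4th gene above 1 CPM in grey. *Pgr* and *Cited1* stand above most genes of their level and *Esr1* among the steadier ones.

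The spread was not one scale factor shared by the members, because their high and low libraries differed. Relative to *Esr1* in the same library, *Pgr* was 6.06, 0.81, 2.21, 2.96 and 3.93 in libraries 1 to 5, a 7.48-fold range, although *Esr1* itself varied only 1.31-fold. Without library 2 that range was 2.74-fold. The ratio of *Pgr* to *Cited1* ranged over 22.0-fold, the widest of the 15 pairs of members, and that of *Tbx3* to *Esr1* over 1.44-fold, the narrowest. The first rests on libraries 1 and 2, being 9.2-fold without library 1 and 7.21-fold without library 2. The widest was then that of *Greb1* to *Cited1*, at 11.3-fold without library 1 and 11-fold without library 2. The 5 libraries form 10 pairs, and a pair is in the same order for 2 genes when the library that is higher for one is higher for the other. *Esr1* and *Tbx3* agreed in 8 of the 10, *Pgr* and *Cited1* in 2 of the 10, and the 15 pairs of members had a median of 4. These counts describe 5 libraries and carry no test.

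Ordered by *Pgr*, the luminal libraries ran 1, 5, 4, 3, 2. Libraries 4 and 3 were close, at 253 and 248 CPM, so 1 of the 10 pairs rests on a small difference. *Stc2*, a secreted glycoprotein and oestrogen target, had the same order in 10 of 10 pairs at 687, 164, 404.5, 422 and 502 CPM in libraries 1 to 5. *Tnfsf11* (RANKL) shared 9 of 10, and *Stat5a*, a prolactin signal transducer, 9 of 10. However, *Tnfsf11* was at 8.51, 8.40 and 8.06 CPM in libraries 1, 4 and 5. Counting error alone would give it a CV of 10.3%, so its order among these libraries carries little information. Its luminal mean of 6.24 CPM is also below the 10 CPM of the genes used for comparison. *Areg* ran the opposite way, with 0 of 10 pairs in the same order, and was highest in library 2 where *Pgr* was lowest. The 6 genes of the dissociation response summed to 1097, 1884, 1392, 1322 and 1487 CPM in luminal libraries 1 to 5. They were thus highest in library 2, where all 6 were above their luminal means, and lowest in library 1, and their part was not tested. Singly they shared 1 (*Jun*) to 6 (*Dusp1*) of 10 pairs with *Pgr*. Among 9804 other genes, 7.29% shared at least 9 of 10 pairs with *Pgr* and 5.07% shared at most 1, so such orders are not rare. Of 40 pathway genes at this level, 5 (12.5%) shared at least 9: *Nrip1*, *Xbp1*, *Stc2*, *Stat5a* and *Cited4*. Another 4 shared at most 1: *Areg*, *Rab31* and the listed progesterone targets *Zbtb16* and *Sgk1*. *Rab31* varied only 1.06-fold over the luminal libraries. Its CV of 2.51% was below the 2.83% that counting error alone would give, so its order carries no information.

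Some markers of luminal progenitors moved with the same libraries. *Cd14* shared the order of *Pgr* in 10 of 10 pairs, at 2061, 461, 482, 488 and 1184 CPM in libraries 1 to 5, and *Csn3* shared 9 of 10. Summed over 7 progenitor markers the level was 4180, 1481, 1545, 1349 and 2963 CPM in libraries 1 to 5, while the other markers of the list shared 8 (*Kit*), 7 (*Elf5*), 6 (*Aldh1a3*), 5 (*Lypd3*) and 0 (*Cxcr4*) of 10. Of the 4 pan-luminal markers, *Epcam* shared 9, *Krt8* and *Krt18* 6 each and *Krt19* 5 of 10. Of the 6 hormone-sensing markers, *Prlr* and *Prom1* shared 8 each, *Fxyd2* 7, *Foxa1* 6, *Ly6a* 3 and *Areg* 0 of 10. The part of these marker classes in the spread of *Pgr* was not tested. Libraries 1 and 5, the highest in *Pgr*, were thus also the highest in the progenitor sum, whereas library 2 was low in *Pgr* and near libraries 3 and 4 in that sum. The 5 fibroblast markers summed to 110.7, 33.2, 58.5, 23.7 and 54.8 CPM in luminal libraries 1 to 5, and *Dcn* made up 95.1 CPM of the sum in library 1, where *Col3a1* was at its lowest, 3.44 CPM. Their part was not tested either.

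**Figure D3:**
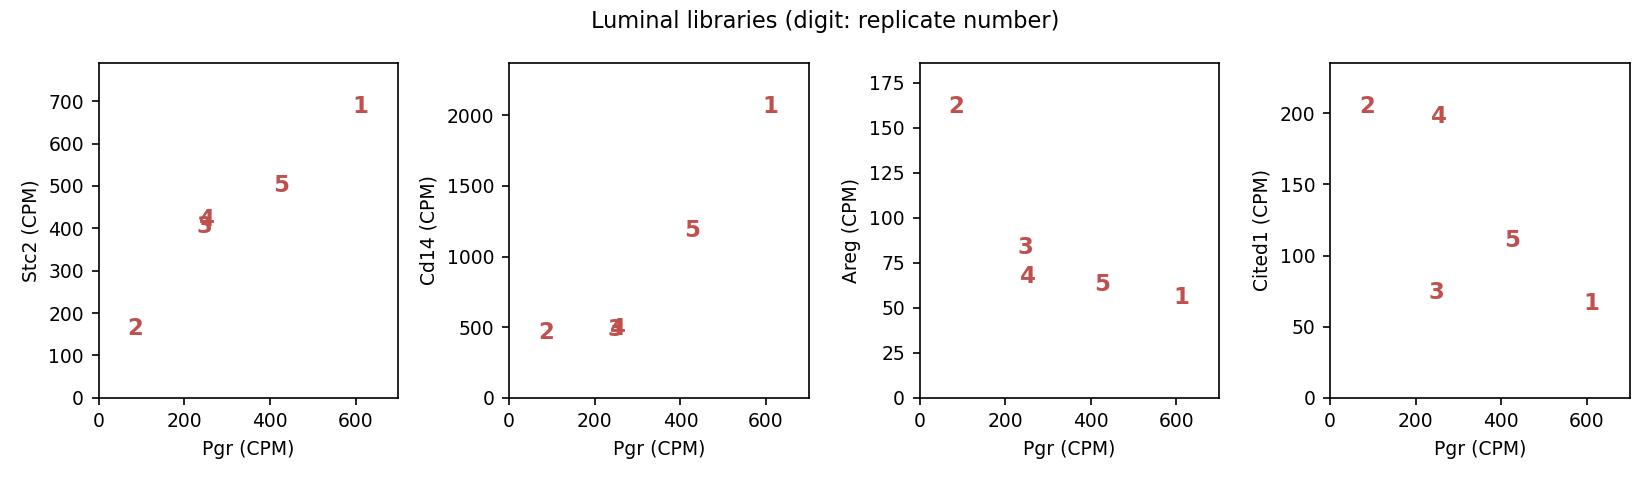
*Stc2*, *Cd14*, *Areg* and *Cited1* against *Pgr* in the 5 luminal libraries (all in CPM, linear axes), with digits for the replicate number. *Stc2* and *Cd14* rank the libraries as *Pgr* does, *Areg* ranks them in reverse, and *Cited1* is highest in libraries 2 and 4.

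Single listed genes also shared most of the order of *Msx2*, *Tbx3* or *Cited1*. *Msx2* shared 9 of 10 pairs with *Calca*, the calcitonin gene, and with *Fxyd2*, an ion pump subunit listed as a hormone-sensing marker, and all were highest in library 4. The other hormone-sensing markers shared 8 (*Prlr*), 6 (*Prom1*), 4 (*Foxa1*), 4 (*Areg*) and 3 (*Ly6a*) of 10 with *Msx2*. With *Msx2*, the dissociation genes shared 0 (*Fos*), 2 (*Dusp1*), 3 (*Jun*), 3 (*Fosb*), 5 (*Egr1*) and 6 (*Atf3*) of 10. The basal markers *Krt14* and *Acta2* shared 6 and 5. The basal marker *Krt5* was at 5.50, 4.27, 5.46, 18.1 and 15.9 CPM in luminal libraries 1 to 5. The erythroid gene *Hba-a1* was at 7.32, 3.37, 7.91, 14.2 and 15.9 CPM there, and the part of these markers was not tested. *Tbx3* shared 10 of 10 with *Foxa1*, the pioneer factor of the receptor, and 9 of 10 with the fibroblast marker *Dcn*, whose part was not tested. *Cited1* shared 10 of 10 with *Esr2*, the beta receptor, but *Esr2* varied only 1.12-fold over the luminal libraries. Of the markers, *Areg*, *Cxcr4* and *Atf3* shared 8 of 10 with *Cited1*. The dissociation genes other than *Atf3* shared 7 (*Jun*), 6 (*Dusp1*), 5 (*Fosb*), 5 (*Egr1*) and 4 (*Fos*) of 10 with *Cited1*. *Foxa1* and *Cd14* shared 2 each and *Csn3* and *Dcn* 1 each, and the part of these markers was not tested. Of all genes at this level, 5.9% shared at least 9 pairs with *Tbx3*, 7.96% with *Cited1*, 3.2% with *Msx2*, 2.36% with *Greb1* and 1.76% with *Esr1*. Of the 40 pathway genes, 4 did so with *Tbx3*, 3 with *Msx2*, 2 with *Cited1* (5.0%, below the share of all genes), 2 with *Esr1* and 0 with *Greb1*.

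**Figure D4:**
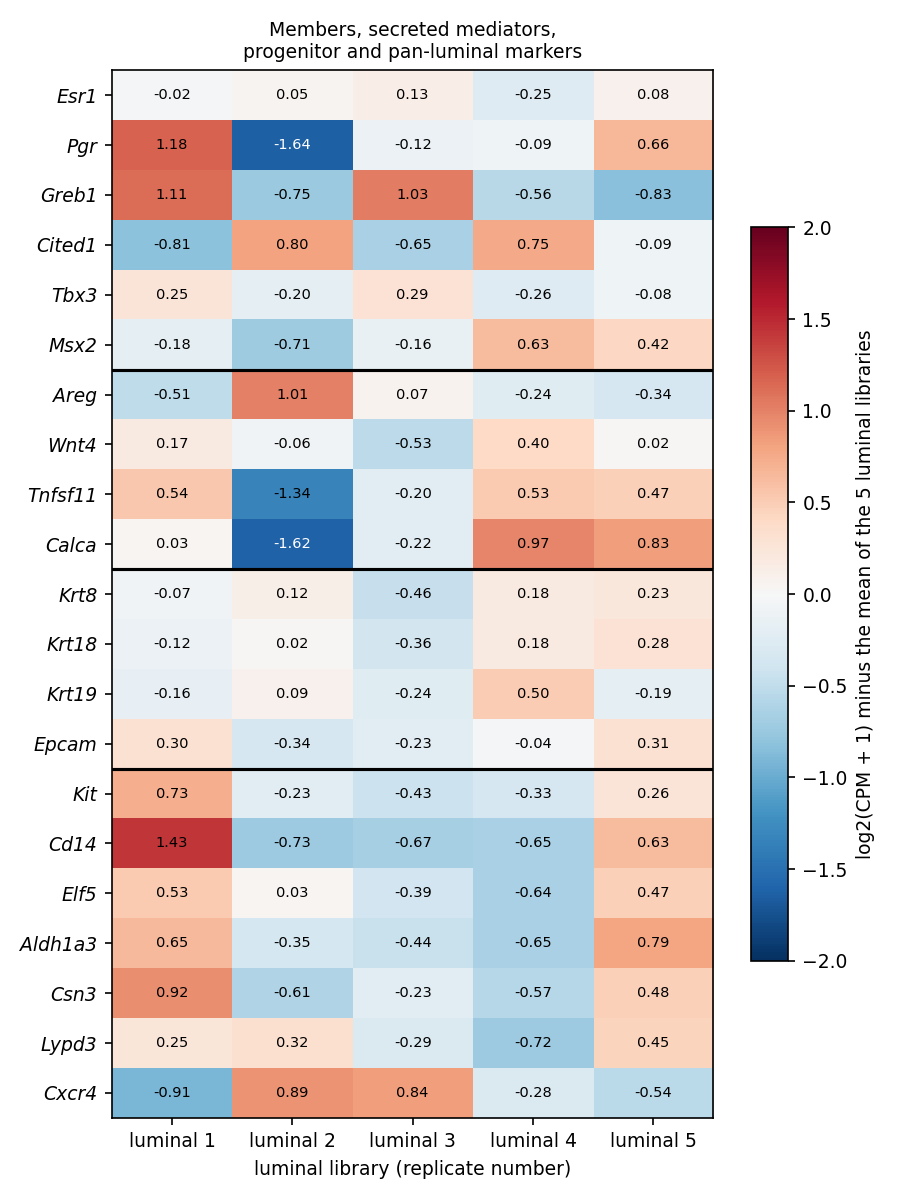
Difference of log2(CPM + 1) from the mean of the 5 luminal libraries for the members, the 4 luminal secreted mediators, and pan-luminal and progenitor markers (blocks from top to bottom). *Esr1* runs from -0.25 to 0.13, while *Pgr* runs from -1.64 in library 2 to 1.18 in library 1 and *Areg* is at 1.01 in library 2.

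The genes most like *Esr1* and *Pgr* over all 10 libraries were listed as a description. Likeness was the root mean square difference of centred log2(CPM + 1), over 12195 genes with at least 5 CPM in the higher group. The nearest to *Esr1* were *Ptdss2* (0.08), a phosphatidylserine synthase, *Tmem106c* (0.21), *D630039A03Rik* (0.22), *Ctnnbl1* (0.23) and *1700066B19Rik* (0.24). In luminal cells *Ptdss2* averaged 75.9 ± 6.70 CPM (SD, n = 5), and in basal cells 11.1 ± 3.13 CPM. The genes closest to *Pgr* were *Faim2* (0.37), *Foxi1* (0.43), *Sgms2* (0.47), *Lratd1* (0.48) and *Sort1* (0.51), all higher in luminal cells. Likeness over all 10 libraries takes in the difference between luminal and basal cells, so it does not show a shared order among luminal libraries. In basal cells *Faim2* averaged 0.34 and *Foxi1* 0.05 CPM, against 7.61 CPM for *Pgr*, and the added 1 hides differences at such low levels. *Sgms2*, a sphingomyelin synthase, was at 337.5 ± 137.5 CPM in luminal and 13.2 ± 2.24 CPM in basal cells. Of the other members, *Msx2* ranked nearest to *Pgr* at place 69, and *Tbx3* ranked nearest to *Esr1* at place 1501.

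The secreted mediators of the programme fell into opposite groups. Of 6, 4 were called luminal-high and 2 basal-high, all by edgeR at an adjusted p under 0.05, with a median log2 fold change of 5.56. Of all genes tested, 33.6% were called luminal-high and 31.2% basal-high. *Areg*, the ligand of the epidermal growth factor receptor, stood at 55.7, 162, 83.7, 67.3 and 62.8 CPM in luminal libraries 1 to 5 and at 0.55 to 6.25 CPM in basal ones (log2 fold change 5.00, SE 0.49, edgeR adjusted p = 6.54e-07). *Wnt4* stood at 163, 138, 99.9, 191 and 146 CPM in luminal libraries 1 to 5 and at 0.31 to 7.82 CPM in basal ones (log2 fold change 6.12, SE 0.68, edgeR adjusted p = 2.21e-06). Its highest basal value was in library 4, without which the log2 fold change was 7.81; it was 5.83 to 6.22 without any other library, 7.16 with limma voom and 6.81 with the replicate block. Basal library 4 was also highest in the sum of hormone-sensing markers, with *Areg* at 6.25, *Prlr* at 2.19 and *Ly6a* at 40.9 CPM. Of that list, 3 were above and 3 below their basal means there, and *Prom1* was at its lowest, 0.44 CPM. Of the 4 pan-luminal markers, 2 were above and 2 below, *Krt19* being at its highest, 157 CPM, and *Krt18* at its lowest, 421 CPM. The part of these markers was not tested. *Tnfsf11* was lower at 8.51, 1.58, 4.66, 8.40 and 8.06 CPM in luminal libraries 1 to 5, with at most 0.08 CPM in a basal library. *Calca* was at 59.4, 18.2, 49.8, 114.7 and 104.2 CPM in luminal libraries 1 to 5, with at most 0.14 CPM in a basal library. No fold is given for *Tnfsf11* and *Calca*, since their basal libraries hold 3 counts or fewer. Both were lowest in luminal library 2, as was *Pgr*. *Adamts18*, a matrix protease, and *Cxcl12*, a chemokine, were the basal mediators: *Adamts18* was at 24.1 ± 8.33 CPM in basal and 0.17 ± 0.18 CPM in luminal cells, and *Cxcl12* at 142.7 ± 20.6 CPM in basal and 1.86 ± 0.91 CPM in luminal cells (SD, n = 5 each).

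**Figure D5:**
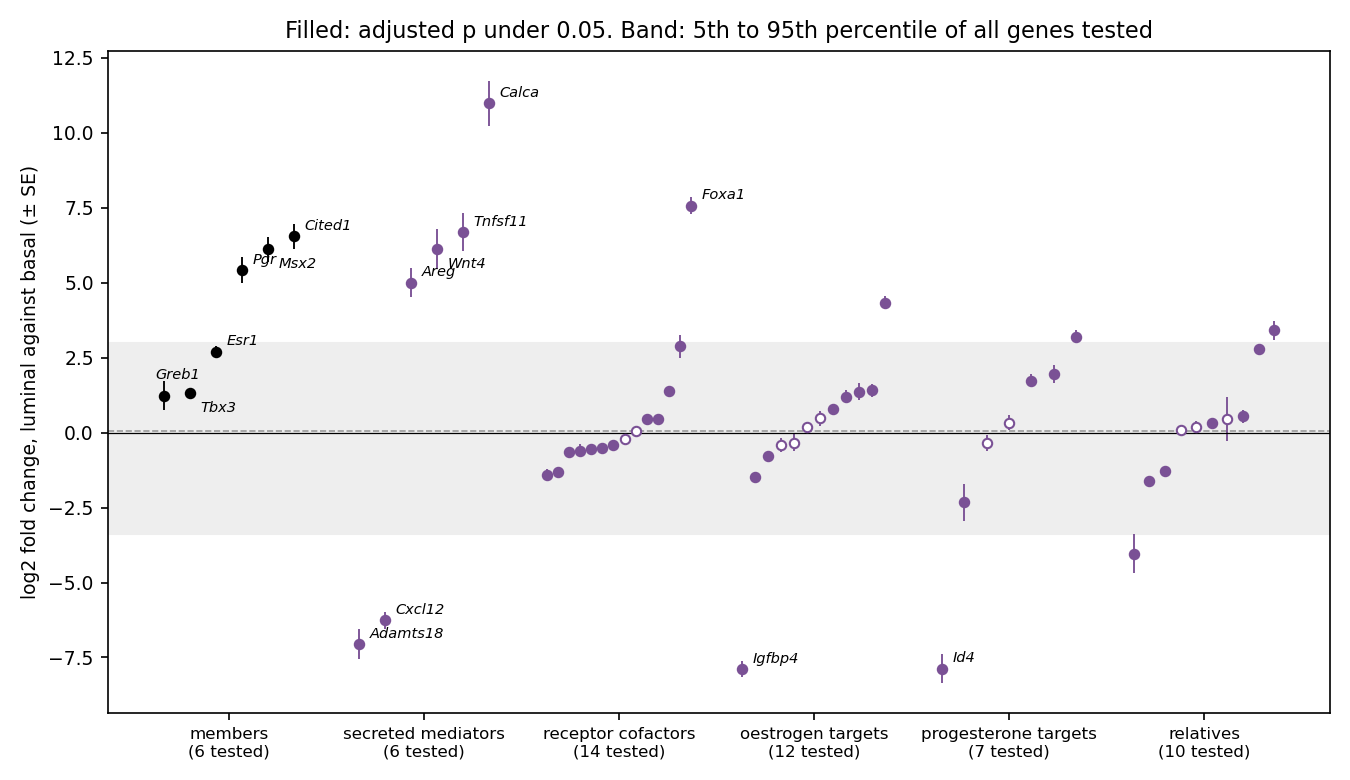
Log2 fold change of luminal against basal cells with its SE for the tested genes of 6 lists, filled where the edgeR adjusted p was under 0.05; the grey band holds the middle 90% of all genes tested. All 6 members lie above 0, while the wider pathway lists lie on both sides. The fitted values of *Calca* and *Tnfsf11* rest on basal counts near 0.

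The wider pathway had calls on both sides, and its difference from the members was not tested. Of 55 genes in 5 lists, mediators included, 49 could be tested; 21 were higher in luminal cells, 17 higher in basal cells and 11 did not pass, with a median log2 fold change of 0.19. The share higher in luminal cells was 42.9%, beside 33.6% of all genes tested, and 31.2% of all genes tested were higher in basal cells.

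Of 14 receptor cofactors, 5 were higher in luminal cells, 7 higher in basal cells and 2 did not pass (median log2 fold change -0.30). The 35.7% higher in luminal cells is near the background of 33.6%, and 31.2% of all genes were higher in basal cells. Of these 12 calls, 4, all of cofactors not named here, were lost in at least 1 alternative: without luminal library 1, 2 or 3 or basal library 1, 2, 4 or 5, with upper-quartile factors, on library totals or without a filter (edgeR adjusted p from 0.0503 to 0.213). *Foxa1* was at 300.3 ± 68.3 CPM in luminal and 1.60 ± 0.60 CPM in basal cells (log2 fold change 7.56, SE 0.28, edgeR adjusted p = 7.05e-11). *Fkbp5*, a co-chaperone of steroid receptors, was at 34.0 ± 16.8 CPM against 4.61 ± 2.37 CPM. *Gata3*, the partner factor of luminal fate, was found in both layers, at 514.5 ± 60.4 CPM in luminal and 196 ± 18.0 CPM in basal cells. *Nrip1*, a corepressor of nuclear receptors, was the higher in basal cells, at 294 ± 51.1 CPM against 110.4 ± 33.3 CPM. *Fkbp4* (log2 fold change -0.20, edgeR adjusted p = 0.366) and *Ncoa3*, a coactivator (log2 fold change 0.05, edgeR adjusted p = 0.803), did not pass.

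Of 15 oestrogen targets, 12 were tested, of which 5 were higher in luminal cells, 3 higher in basal cells and 4 did not pass (median log2 fold change 0.33). The share higher in luminal cells was 41.7% against a background of 33.6%, with 31.2% for basal cells. *Agr2*, *Tff1* and *Tff3*, known chiefly from human tumour cells, had at most 7 counts in any library. *Ccnd1*, the cyclin of the G1 phase, was at 96.8 ± 27.1 CPM in luminal and 4.80 ± 0.48 CPM in basal cells, and *Ctsd*, a lysosomal protease, at 1211 ± 331 CPM against 456 ± 118 CPM. *Igfbp4*, an insulin-like growth factor binding protein, was the reverse, at 2.46 ± 0.71 CPM in luminal and 579.9 ± 112.7 CPM in basal cells, and *Hspb8*, a small heat shock protein, at 53.9 ± 10.2 CPM against 149.9 ± 21.6 CPM. *Xbp1* (log2 fold change 0.19, edgeR adjusted p = 0.317) and *Irs1* (log2 fold change 0.47, edgeR adjusted p = 0.129) did not pass. Each gained the call in 1 of 8 other settings, and *Irs1* also in 1 of 10 leave-one-out fits.

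Of 9 progesterone targets, 7 were tested, of which 3 were higher in luminal cells, 2 higher in basal cells and 2 did not pass (median log2 fold change 0.34). With 7 genes, 42.9% were higher in luminal cells, beside a background of 33.6% there and 31.2% in basal cells. *Zbtb16*, a zinc finger repressor, was at 58.5 ± 15.1 CPM in luminal and 6.38 ± 1.36 CPM in basal cells. *Stat5a* was at 174 ± 88.8 CPM against 45.0 ± 9.36 CPM, and *Tsc22d3*, a glucocorticoid-induced regulator, at 67.6 ± 13.0 CPM against 20.3 ± 6.63 CPM. *Id4*, an inhibitor of helix-loop-helix factors, was almost wholly basal, at 314 ± 33.6 CPM against 1.39 ± 1.25 CPM in luminal cells. *Per1* (log2 fold change -0.36, edgeR adjusted p = 0.254) and *Sgk1* (log2 fold change 0.33, edgeR adjusted p = 0.264) did not pass, and *Hand2* and *Ihh* were too low to test. *Sgk1* gained the call in 1 of 10 leave-one-out fits. The dissociation genes *Fos*, *Jun*, *Fosb*, *Egr1*, *Atf3* and *Dusp1* were all higher in basal cells (median log2 fold change -1.16), and their part in these target lists was not tested.

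Of 11 relatives of the members, 10 were tested, of which 4 were higher in luminal cells, 3 higher in basal cells and 3 did not pass (median log2 fold change 0.25). The share higher in luminal cells was 40.0%, beside 33.6% of all genes (31.2% for basal cells), and it includes *Esr2* and *Cited2*, whose calls did not hold. *Cited2*, a coactivator (log2 fold change 0.54, edgeR adjusted p = 0.0419), lost its call without luminal library 1, 2, 3 or 5 or basal library 1, 2, 3 or 4 (edgeR adjusted p from 0.0543 to 0.101), with DESeq2 size factors (0.0567), without a filter (0.0736) and with limma voom (0.0672). *Tbx2*, the nearest relative of *Tbx3*, was on the other side, at 10.4 ± 2.02 CPM in basal and 0.61 ± 0.63 CPM in luminal cells. *Cited4* was also the higher in luminal cells, but shared 1 of 10 pairs of luminal libraries with *Cited1*, at 71.7 ± 30.6 CPM in luminal and 6.73 ± 2.31 CPM in basal cells. The mineralocorticoid receptor *Nr3c2* was the higher in luminal cells, at 38.0 ± 7.21 CPM against 5.56 ± 0.84 CPM. The glucocorticoid receptor *Nr3c1* was the higher in basal cells, at 121 ± 15.7 CPM against 49.96 ± 4.48 CPM (log2 fold change -1.28, SE 0.13, edgeR adjusted p = 1.06e-06). *Greb1l*, the paralogue of *Greb1*, was at 11.1 ± 1.46 CPM in luminal and 9.71 ± 1.54 CPM in basal cells and did not pass (edgeR adjusted p = 0.396). The membrane-associated *Pgrmc1* did not pass (log2 fold change 0.09, edgeR adjusted p = 0.567), whereas *Pgrmc2* was the higher in basal cells, at 190.2 ± 20.2 CPM against 62.1 ± 15.7 CPM. *Esr2* was at 49.2 ± 2.60 CPM in luminal and 39.4 ± 5.30 CPM in basal cells (log2 fold change 0.32, SE 0.13, edgeR adjusted p = 0.0419), a call lost with the animal number as a block (0.33, adjusted p = 0.0665). The call was also lost without luminal library 2, 3, 4 or 5 or basal library 2, 3, 4 or 5 (edgeR adjusted p from 0.0543 to 0.119), with DESeq2 (0.0689), with its size factors in edgeR (0.0777) and without a filter (0.148).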

How the data were processed

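RNA of sorted luminal and basal cells was measured in 5 libraries each. As deposited, the table holds whole-number counts of reads for each gene, without normalization. The submitters' processing notes name cutadapt 4.2, Bowtie2 2.3.5.1 and mm10, and the authors' methods name another release of bowtie2 and give none for cutadapt. The counting tool, annotation and strand setting are not given in the sources used here. Bowtie2 does not align across splice junctions, which can lower counts of genes with short exons. The study describes fewer replicates per condition than the 5 libraries here. Nothing beyond the shared number says that libraries came from separate animals. If they did not, p-values measure only the spread between libraries. Identifiers were matched to RefSeq on GRCm38.p6 (24570 of 24594 genes), which also gave coordinates. Transcript length and exon overlap are from the GENCODE M21 annotation of the same build, length being that of the longest transcript of a gene.

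Genes were filtered with filterByExpr (minimum count 10, minimum total 15), scaled by TMM and tested with edgeR 4.0.16 (quasi-likelihood, R 4.3.3), cell type as the only term, with Benjamini-Hochberg adjustment over 14609 genes at 0.05. Totals were 13203146 to 17998165 counts. Same-numbered libraries share the number read as the animal; correlations of their deviations were -0.105 to 0.169 (mean 0.04), and 2 of 5 libraries matched their own number best. Alternatives were other scalings, other filters, DESeq2 1.42.0, limma voom 3.58.1, the replicate block and leaving out each library. The test was tried on simulated data.

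Members and lists were chosen with earlier results of these data known. The lists are counted without 2 genes that are not reported here, and list genes not named enter the counts only. Named are the members, the mediators, the 4 largest changes passing the test (5 CPM or more where higher) and the 2 most abundant genes not passing in each other list, and the 5 genes most like *Esr1* and *Pgr*. *Stc2*, *Esr2*, *Calca*, *Fxyd2*, *Foxa1*, *Rab31* and the cell type and dissociation markers were named beside the spread, *Nr3c1* and *Cited2* beside their list, and *Ptdss2* and *Sgms2* given levels, after their values were seen.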

Additional observations from a re-analysis of the deposited data

Results flagged for a closer look

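In 7 of 108 groups of 5 libraries, 1 library lay apart from the other 4 by Dixon's test at 95%, where about 1 in 20 groups (5.4 of 108) would by chance. *Areg* was at 161.7 CPM in luminal library 2 against 55.7 to 83.7 in the others. *Wnt4* was at 7.82 CPM in basal library 4 against 0.31 to 1.14. *Foxa1* was at 2.63 CPM in basal library 3 against 1.14 to 1.56. *Irs1* was at 20.9 CPM in basal library 4 against 27.8 to 30.2. *Zbtb16* was at 8.75 CPM in the same library against 5.30 to 6.17. In luminal library 4, *Bcl2* was at 7.86 CPM against 13.6 to 15.1 and *Nr3c2* at 50.9 CPM against 34.0 to 35.7. None of the 6 members stood apart in this way.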

How the results depend on the processing

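The calls of *Esr1*, *Pgr*, *Cited1*, *Tbx3* and *Msx2* held in every alternative that could be fitted; *Msx2* could not be fitted under the filter of 10 counts in every library. *Greb1* lost its call with limma voom (0.99, adjusted p = 0.0993), with the replicate block (0.99, adjusted p = 0.0567) and without luminal library 1 or 3 or basal library 1, 4 or 5, and its log2 fold change ranged from 0.90 to 1.44 over the leave-one-out fits. The block changed no other member's call. The luminal CV on library totals only was 15.1% for *Esr1* and 22.6% for *Tbx3*. Leaving out 1 luminal library, the CV ranged from 4.42% to 11.4% for *Esr1* (lowest without library 4), 43.5% to 74.1% for *Pgr*, 68.3% to 89.5% for *Greb1*, 44.0% to 55.8% for *Cited1*, 16.8% to 20.1% for *Tbx3* and 29.0% to 40.8% for *Msx2*. Directions turned for 2 genes that never passed: *Ncoa3* (-0.0178 without a filter, -0.0365 to 0.138 leave-one-out) and *Msx1* (-0.52 with voom, -0.23 with the block, -0.431 to 0.751 leave-one-out). Of 873 values of 49 pathway genes, 822 kept direction and call, 39 lost the call, 5 gained it and 7 turned. Genes called in all ranged from 7884 to 10055. Scaling on totals moved the median of all genes by 0.19, upper-quartile factors by 0.12. The cause of these shifts was not tested.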
